A study of Mus musculus with 30 samples.

Results

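Of the 21634 unique sequences counted in mouse serum, 2814 (13.0%) were 15 to 19 nucleotides (nt) long, and these short sequences are described here. The serum came from C57Bl/6J males at 3 months of age. MSUS males had been exposed, over their first 14 days of life, to separation from the dam at unpredictable times while the dam was stressed unpredictably, and CTRL males had not. There were 4 MSUS libraries (6, 7, 8 and 10) and 4 CTRL libraries (1, 2, 3 and 5). Total counts were 16368329, 15391664, 13308756 and 12445867 in CTRL libraries 1, 2, 3 and 5, and 16733257, 15446930, 12744641 and 12621261 in MSUS libraries 6, 7, 8 and 10. The labels do not tie each library to a separate animal, so p-values measure the spread between these samples.

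Serum carries small RNAs released by blood cells and tissues, bound to proteins or enclosed in vesicles. MicroRNAs (miRNAs) guide repression of messenger RNAs through their seed, and transfer RNAs (tRNAs) and ribosomal RNAs (rRNAs) yield fragments that are abundant in blood. Molecules below the length of a mature miRNA can be pieces of any of these RNAs.

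CTRL libraries 1, 2 and 3 stood apart from the other 5 libraries. Over the 639 short sequences that exceeded 20 counts in 4 libraries or more, the correlation of log2 CPM (counts scaled to a common library total) was 0.920 to 0.938 among CTRL libraries 1, 2 and 3. It was 0.769 to 0.806 between CTRL library 5 and these, and 0.895 to 0.927 between CTRL library 5 and the MSUS libraries. These are correlations across sequences, which are not independent replicates. The labels name no batch for the serum libraries, and what sets the 3 libraries apart was not tested. Some results are given also without CTRL library 5.

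The short sequences held 2161587 counts, 1.88% of the table. Their share of a library was 2.22%, 1.39%, 2.41% and 2.63% in CTRL libraries 1, 2, 3 and 5, and 1.58%, 1.46%, 1.56% and 1.98% in MSUS libraries 6, 7, 8 and 10. CTRL library 2 had the lowest share of all 8, so the groups overlapped (CTRL 2.16% ± 0.542, MSUS 1.64% ± 0.232, SD, n = 4 each, two-sided exact permutation test, p = 0.143). The smallest p that 4 against 4 libraries allow is 0.0286. As a share of the 15 to 24 nt counts alone the groups did not separate (CTRL 9.38% ± 1.38, MSUS 9.31% ± 1.33, SD, n = 4 each, exact permutation test, p = 0.943). Counts were concentrated: the 10 most abundant short sequences held 59.1% of the short counts and the first 100 held 82.5%, while the median sequence had 56 counts over all libraries. In all 8 libraries, 1382 of the 2814 were present.

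Counts did not fall evenly over the 5 lengths. Sequences of 16 nt and 18 nt held 0.555% and 0.517% of the counts of a library on average, against 0.252%, 0.313% and 0.265% for 15, 17 and 19 nt. The 18 nt share was 0.731%, 0.450%, 0.764% and 0.612% in CTRL libraries 1, 2, 3 and 5, and 0.398%, 0.413%, 0.386% and 0.380% in MSUS libraries 6, 7, 8 and 10. Every MSUS library lay below every CTRL library, CTRL library 5 included. Part of this share was 1 sequence, the 18 nt member of the most abundant family described below. It was at 2132, 1314, 3820 and 269 CPM in CTRL libraries 1, 2, 3 and 5. In MSUS libraries 6, 7, 8 and 10 it was at 186, 302, 267 and 283 CPM. The 18 nt separation is therefore not independent of that sequence, and the share without it was not tested. The 19 nt share also separated the groups, with 0.317%, 0.263%, 0.402% and 0.287% in CTRL and 0.164%, 0.233%, 0.202% and 0.252% in MSUS. The 18 nt and 19 nt differences each had p = 0.0286 in the two-sided exact permutation test. Neither passed after Benjamini-Hochberg adjustment over the 5 lengths (adjusted p = 0.0714). The other lengths overlapped, with adjusted p = 1 for 15 nt, 0.643 for 16 nt and 0.429 for 17 nt (exact permutation tests).

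The most abundant family shared 1 3′ end and differed in where it began. Sequences of 15 to 19 nt that end with the 15 nt member held 30.6% of the short counts. They are shown because their lengths had different profiles across libraries; capitals mark the shared 15 nt. Their source was not identified here. Whether they come from serum RNA or from the library preparation was not tested.
15 nt, 161341 counts: ACCACGTTCCCGTGG
16 nt, 303013 counts: cACCACGTTCCCGTGG
17 nt, 64688 counts: ccACCACGTTCCCGTGG
18 nt, 124042 counts: tccACCACGTTCCCGTGG
19 nt, 6160 counts: ttccACCACGTTCCCGTGG
20 nt, 7525 counts: attccACCACGTTCCCGTGG
The 16 nt member was at 3328, 1811, 3109 and 3419 CPM in CTRL libraries 1, 2, 3 and 5, and at 2163, 2272, 2508 and 2653 CPM in MSUS libraries 6, 7, 8 and 10. The groups overlapped through CTRL library 2 (log2 fold change −0.19 ± 0.25 SE, edgeR quasi-likelihood adjusted p = 0.766). The 18 nt member was at 2132, 1314, 3820 and 269 CPM in CTRL, and at 186, 302, 267 and 283 CPM in MSUS. CTRL library 5 lay among the MSUS libraries. The log2 fold change was −2.82 ± 0.60 SE (edgeR adjusted p = 0.305, not called), and −3.17 without CTRL library 5 (edgeR adjusted p = 0.000777). Relative to the 16 nt member of the same library, the 18 nt member was at 64.1%, 72.6%, 123% and 7.87% in CTRL, and at 8.59%, 13.3%, 10.6% and 10.7% in MSUS. This ratio, chosen after its values were seen, does not depend on scaling between libraries, and it set CTRL libraries 1, 2 and 3 apart from the rest. The 15 nt member was at 47.3%, 37.4% and 41.9% of the 16 nt member in CTRL libraries 1, 2 and 3 and at 50.7% to 66.8% in the other 5. The 19 nt member was at 2.31%, 3.39% and 2.77% in these 3 and at 1.13% to 2.23% in the other 5, so these ratios also separated the 3 libraries. The 17 nt member was at 18.6% to 24.9% in all 8 libraries.

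Other abundant short sequences were stretches of RNAs whose names are given as background, since tRNA and rRNA sequences were not matched here. Each is shown in the longer sequence that holds it and has the most counts; capitals mark the short sequence.
5′ portion of a lysine tRNA: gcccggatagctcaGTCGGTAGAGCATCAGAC
5′ part of a glycine tRNA: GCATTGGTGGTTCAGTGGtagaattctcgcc
28S rRNA: GCAGCCGACTTAGAACTggtgcggacc
The lysine tRNA stretch was at 1864, 1268, 1433 and 2898 CPM in CTRL libraries 1, 2, 3 and 5, and at 1915, 1481, 1517 and 698 CPM in MSUS libraries 6, 7, 8 and 10. The groups overlapped, with CTRL library 5 the highest and MSUS library 10 the lowest (log2 fold change −0.29 ± 0.35 SE, edgeR adjusted p = 0.737). With 1 library left out the value ran from −0.57 (without MSUS library 6) to −0.04 (without MSUS library 10). The 28S stretch was at 985, 1065, 2158 and 2423 CPM in CTRL and 1404, 326, 822 and 1812 CPM in MSUS. Again the groups overlapped (log2 fold change −0.46 ± 0.48 SE, edgeR adjusted p = 0.697). Here the value ran from −0.77 (without MSUS library 10) to −0.13 (without MSUS library 7) with 1 library left out. Short and holding sequences stood in very different proportions. The 31 nt glycine tRNA sequence had 14424382 counts, and the 16 short sequences assigned to it had 82995. The 27 nt 28S sequence had 1426 counts, against 290161 in its 13 short sequences.

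Of the short sequences, 331 lay in a miRNA, with at least 15 bases inside a RefSeq mature sequence (GRCm38.p6) and any further bases along its hairpin. The miRNA table used was not complete, so this count and the share below are minimums. They held 14.7% of the short counts, and 85.6% of their counts began at the first base of the mature sequence. For 6 of the 99 miRNA groups with at least 1000 counts, sequences of 15 to 19 nt outnumbered those of 20 to 24 nt, while the median group had 3.39% of its counts at 15 to 19 nt. The miRNAs with the most short counts are shown with the seed, bases 2 to 8, in capitals. miR-103-3p and miR-107-3p share 1 seed, as do miR-10a-5p and miR-10b-5p.
miR-144-3p, chr11:78073047-78073066: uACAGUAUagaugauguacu
miR-103-3p, chr2:131288103-131288125 and chr11:35782447-35782469: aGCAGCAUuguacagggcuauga
miR-107-3p, chr19:34820700-34820722: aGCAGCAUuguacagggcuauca
miR-10a-5p, chr11:96317186-96317208: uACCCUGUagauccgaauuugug
miR-10b-5p, chr2:74726074-74726096: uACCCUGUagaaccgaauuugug
miR-142a-5p, chr11:87756867-87756887: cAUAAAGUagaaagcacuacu
miR-144-3p, a miRNA of red blood cell precursors, had 78.8%, 78.5%, 80.9% and 73.8% of its counts at 15 to 19 nt in CTRL libraries 1, 2, 3 and 5, and 77.3%, 71.8%, 77.2% and 77.6% in MSUS libraries 6, 7, 8 and 10. The groups overlapped. The short share of miR-103-3p and miR-107-3p, which the short sequences cannot tell apart, was 88.3% to 94.4% over the 8 libraries. miR-10a-5p and miR-10b-5p were mostly full length, with 3.87% and 2.01% of their counts at 15 to 19 nt. Their mature sequences are 23 nt long and that of miR-144-3p is 20 nt, so these shares do not compare shortening between them. The most abundant short sequence of miR-142a-5p, a miRNA of blood cells, began at position −2 relative to the mature sequence.
miR-144-3p, 19 nt: cTACAGTATAGATGATGTAC
miR-103-3p and miR-107-3p, 18 nt: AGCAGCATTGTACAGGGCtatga
miR-142a-5p, 19 nt: CCCATAAAGTAGAAAGCACt
Here capitals mark the short sequence within its holding sequence. The 19 nt sequence of miR-144-3p was at 720, 945, 1667 and 342 CPM in CTRL, and at 166, 202, 300 and 576 CPM in MSUS. CTRL libraries 1, 2 and 3 lay above all others, and CTRL library 5 lay within the MSUS range (log2 fold change −1.51 ± 0.50 SE, edgeR adjusted p = 0.350). Without CTRL library 5 the value was −1.79 (edgeR adjusted p = 0.0624).

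Many short sequences were close relatives of others. Of the 2814, 848 differed at 1 base from a more abundant sequence of the same length, and 575 from one with at least 10 times the counts. Positions are counted from 1 at the 5′ end, with the base of the more abundant sequence first. The C8A and C6A forms of the 18 nt member above were at 1.51% to 2.93% and 0.224% to 1.62% of its counts in the 8 libraries. The G6T form of the 18 nt glycine tRNA sequence was at 49.8% to 106% of it and had a longer holding sequence of its own with 4356613 counts.

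First bases and base content set the short sequences apart from those of 20 to 24 nt in the same libraries. Over the 8 libraries, T opened 19.5% ± 7.94 (SD) of short counts and 88.3% ± 1.26 of counts at 20 to 24 nt. G opened 35.6% ± 5.92 of the short counts and 0.736% ± 0.136 at 20 to 24 nt. G and C made up 58.4% ± 0.867 of the bases of short counts and 54.5% ± 1.22 at 20 to 24 nt. Sequences of 25 nt or more held 78.1% ± 1.57 of the short counts and 84.2% ± 2.76 of those at 20 to 24 nt, a difference that turned to 19.7 percentage points higher for short sequences with each sequence counted once. Each difference by counts had 1 direction in all 8 libraries (two-sided exact sign-flip permutation test, adjusted p = 0.00781, the smallest that 8 libraries can give).

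Between the groups, no first base passed the test. T opened 24.1%, 27.7%, 32.8% and 11.4% of the short counts in CTRL libraries 1, 2, 3 and 5, and 11.0%, 18.9%, 14.3% and 16.04% in MSUS libraries 6, 7, 8 and 10. CTRL libraries 1, 2 and 3 were the highest and CTRL library 5 lay within the MSUS range (adjusted p = 0.152, exact permutation test over 4 bases). Without CTRL library 5 the difference was −13.1 percentage points (exact permutation test, adjusted p = 0.0571). Of the sequences that open with T, 2 named above were high in the same 3 libraries. The 18 nt family member had 34890, 20225 and 50835 counts in CTRL libraries 1, 2 and 3, and 3349 in CTRL library 5. In MSUS it had 3108 to 4660. The 19 nt sequence of miR-144-3p had 11782, 14552 and 22191 in those 3, 4251 in CTRL library 5 and 2783 to 7270 in MSUS. The T difference is not independent of these 2 sequences, and the share without them was not tested. Adjusted p was 0.152 for A and C and 0.600 for G. Percent G and C was 58.0 ± 0.930 in CTRL and 58.9 ± 0.636 in MSUS (SD, n = 4 each, exact permutation test, adjusted p = 0.381). The adjusted p was also 0.381 for C and for G, 0.464 for A and 0.486 for T (exact permutation tests).

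Short sequences were compared with the longer sequences of the table. An exact copy lay in a sequence of 20 nt or more for 1887 of the 2814, which held 93.5% of the short counts. Only 33.8% of the short counts were in the 1512 short sequences held by a longer sequence more abundant than themselves. By counts, 45.5% shared the 3′ end alone with a longer sequence, 25.9% the 5′ end alone, 21.1% each end with some longer sequence, and 0.912% neither. Those with the 3′ end alone had 984394 counts. The 15, 16, 17 and 18 nt members of the most abundant family had 161341, 303013, 64688 and 124042 of these, so that share rests largely on 1 family. The held share was 94.1%, 94.7%, 95.6% and 93.4% in CTRL libraries 1, 2, 3 and 5, and 90.9%, 93.9%, 91.4% and 92.8% in MSUS libraries 6, 7, 8 and 10. MSUS library 7 lay above CTRL library 5, so the groups overlapped (two-sided exact permutation test, p = 0.0571, adjusted p = 0.190). The share was 4.33 percentage points higher in MSUS, not lower, when a holding sequence had to have more counts than the short one. With holding sequences of 20 to 24 nt alone it was −3.45 points (exact permutation test, adjusted p = 0.0571), against −2.23. The log2 ratio of held short counts to the 20 to 24 nt sequences that hold them was −3.33 ± 0.233 in CTRL and −3.38 ± 0.208 in MSUS (SD, n = 4 each, exact permutation test, p = 0.771). The difference was −0.05, and −0.41 with all holding sequences of 20 nt or more (exact permutation test, p = 0.143).

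By mean CPM, the 3 most abundant short sequences that lay in no sequence of 20 nt or more were GCGTTGGTCCGGGGAC, CACCACGTTACCGTGG and ATACGACTCTTAGCGG. The first was at 34.6, 4.81, 9.32 and 130.0 CPM in CTRL libraries 1, 2, 3 and 5, and at 325, 41.8, 179 and 183 CPM in MSUS libraries 6, 7, 8 and 10. MSUS library 7 lay below CTRL library 5 and above the other CTRL libraries (log2 fold change 2.26 ± 0.87 SE, edgeR adjusted p = 0.391). Without CTRL library 5 it was called, at 3.61 (edgeR adjusted p = 0.0426), and it is among the 36 sequences called there. The second is the C10A form of the 16 nt family member, and the third was at 20.5 to 76.9 CPM over the 8 libraries.

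Each sequence was tested between MSUS and CTRL in a fit over all lengths, in which 5513 sequences passed the filter on low counts, 639 of them short. By edgeR's quasi-likelihood test, 0 of the 639 passed an adjusted p of 0.05, as did 0% of all sequences tested. At an unadjusted p under 0.05 there were 65 short sequences, 21 higher and 44 lower in MSUS, or 10.2% against 12.4% of all tested. With 1 library left out the count was 31 (without CTRL library 3) to 118 (without CTRL library 5). Without CTRL library 5 there were 76 higher and 42 lower, 20.1% of the short sequences tested against 15.9% of all. With 3 CTRL libraries left, the filter of 4 libraries can be met by the MSUS libraries alone but not by CTRL alone, which limits how that balance can be read. Of the 76, 20 had no CTRL library above 20 counts. A filter of 3 libraries, which either group can meet alone, was chosen after seeing the data. With it 91 were higher and 46 lower (20.5% of 667, against 16.3% of all tested). Of the 91, 37 had no CTRL library above 20 counts, and of the 46, 5 had no MSUS library above it. That balance is therefore also limited by the filter. edgeR's exact test called 6 short sequences (0.562% of all tested were called) and DESeq2 called 6 (0.943%). Scaled by library totals, 14 were higher and 51 lower at an unadjusted p under 0.05 (10.2%, against 11.0% of all tested). With scaling factors from the short sequences alone it was 48 higher and 28 lower (11.9%, against 10.5% of all tested). The median log2 fold change was −0.08 over short sequences and −0.03 over all tested. After scaling, all MSUS libraries were below all CTRL libraries for 30 of the 639 (4.69%, against 3.7% of all tested) and above them for 4 (0.626%, against 2.54%).

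The sequences at an unadjusted p under 0.05 were also read by length. Of 108 sequences of 15 nt tested, 8 (7.41%) were higher in MSUS and 0 lower, against 12.4% of all tested. Of 146 of 19 nt, 1 was higher and 21 lower (15.1% together). At 16 nt 9 were higher and 1 lower (6.94%), at 17 nt 0 and 4 (3.45%), and at 18 nt 3 and 18 (16.8%). Scaled by library totals, 5 were higher and 1 lower at 15 nt, and 0 higher and 25 lower at 19 nt, with 11.0% of all tested at such a p. With scaling factors from the short sequences alone, 16 were higher and 0 lower at 15 nt, and 5 higher and 12 lower at 19 nt (10.5% of all tested). Without CTRL library 5, 21 were higher and 0 lower at 15 nt, 12 higher and 17 lower at 18 nt, and 9 higher and 21 lower at 19 nt (15.9% of all tested). With the filter of 3 libraries 27 were higher and 0 lower at 15 nt and 12 higher and 25 lower at 19 nt (16.3% of all tested). Over all 5 lengths, 20 of the 76 and 37 of the 91 higher sequences in these fits had no CTRL library above 20 counts. This limits how the balance by length can be read there. With all 8 libraries the median log2 fold change was 0.24, 0.08, −0.11, −0.21 and −0.31 from 15 to 19 nt. Scaled by library totals the medians were 0.12, −0.03, −0.21, −0.30 and −0.38. Without CTRL library 5 (filter of 4 libraries) they were 0.53, 0.27, −0.01, −0.19 and −0.27. With CTRL library 5 as the only control, an alternative chosen after seeing the data, 0 were higher and 1 lower at 15 nt and 0 higher and 3 lower at 19 nt (2.5% of all tested), and the medians were −0.40, −0.34, −0.37, −0.22 and −0.33. These rest on 1 control library, and the order by length was not present there.

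The 5 short sequences with the smallest p were all 18 nt long, and none passed adjustment in edgeR's quasi-likelihood test (adjusted p = 0.305 for each). edgeR's exact test called all 5 (adjusted p 0.00248 to 0.0172) and DESeq2 called 4. Without CTRL library 5, 4 were tested and all 4 were called (quasi-likelihood adjusted p 0.000584 to 0.00452). The last did not pass the filter of 4 libraries there, and with a filter of 3 libraries it was called (adjusted p = 0.0391). Capitals mark the short sequence in its longer holding sequence.
lower in MSUS: atTCCACCAAGTTCCCGTGG
lower in MSUS: atTCCACCACGTTCCCGTGG
higher in MSUS: ccgtccTCGCGTCGGGGTCGGGGC
lower in MSUS: atTCCACAACGTTCCCGTGG
lower in MSUS: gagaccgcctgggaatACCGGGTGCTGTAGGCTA
In this order, the unadjusted p of edgeR's quasi-likelihood test was 0.000278, 0.000527, 0.000533, 0.000717 and 0.000865. The sequences with the letters of the family are the 18 nt family member and its C8A and C6A forms, and so are not independent of each other. Whether they come from serum RNA or from the library preparation was not tested. The last is the T18A form of a stretch at the 3′ end of 5S rRNA. The second had 34890, 20225, 50835 and 3349 counts in CTRL and 3108, 4660, 3402 and 3573 in MSUS, a log2 fold change of −2.82 ± 0.60 (SE) that was 0.11 with CTRL library 5 as the only control. The third had 23, 12, 13 and 55 counts in CTRL and 138, 94, 109 and 123 in MSUS. Every MSUS library was above every CTRL library, with CTRL library 5 the nearest (log2 fold change 2.25 ± 0.48 SE). The last had 57, 27, 36 and 26 counts in CTRL and 14, 15, 7 and 4 in MSUS, where CTRL library 5 lay with its own group.

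Leaving out CTRL library 5 changed the count of calls. Without it, 36 of 588 short sequences (6.12%) passed edgeR's adjusted p of 0.05, 30 higher and 6 lower in MSUS, against 2.34% of all 5218 tested. The filter of 4 libraries lets in sequences above 20 counts in MSUS alone but not in CTRL alone, and 17 of the 30 higher ones had no CTRL library above 20 counts. With the filter of 3 libraries, 50 of 667 (7.5%) were called, 41 higher and 9 lower, against 2.99% of all 5887 tested. Of these 41, 25 had no CTRL library above 20 counts, and of the 9, 3 had no MSUS library above it. Both filters thus let in sequences through the group where they were high. The fits without CTRL library 5 were 2 of 18 other ways of testing, of which 14 called no short sequence. In all 36 sequences called with the filter of 4, CTRL library 5 lay nearer the MSUS mean than the mean of CTRL libraries 1, 2 and 3. With all 8 libraries, the quasi-likelihood test called 0 of the 36, and 12 had an unadjusted p under 0.05. The position of CTRL library 5 is thus largely set by how the 36 were chosen. The share over all 588 sequences tested is not given here. With CTRL library 5 as the only control, 0 of 540 were called and 15 had an unadjusted p under 0.05. That fit takes its spread from the MSUS libraries and assumes that the lone control varies like them, so its count of 0 (smallest adjusted p 0.932) says little about the 36. Whether the 36 differ by MSUS or by what sets CTRL libraries 1, 2 and 3 apart cannot be told apart. Of the 36, 8 lay in 1 sequence of 20 nt, shown with its 17 nt stretch of smallest p in capitals, chosen after its values were seen.
20 nt holding sequence: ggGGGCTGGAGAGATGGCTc
The 17 nt stretch had 15, 5, 8 and 380 counts in CTRL libraries 1, 2, 3 and 5, and 204, 211, 237 and 231 in MSUS libraries 6, 7, 8 and 10. CTRL library 5 was above every MSUS library. Its letters match miR-3473b and miR-3473e.

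Short sequences were also grouped by the sequence of 20 nt or more that holds them, and the 927 held by none of that length were kept as single features. This gave 1642 features, 715 of them holding sequences, of which 377 grouped more than 1 short sequence. Of the 443 that passed the filter, 315 were holding sequences and 128 were single. By edgeR's quasi-likelihood test 0 were called and 46 had an unadjusted p under 0.05, 15 higher and 31 lower in MSUS (10.4%, against 12.6% of all features tested). With 1 library left out this count was 21 (without CTRL library 3) to 69 (without CTRL library 5), and without CTRL library 5 it was 46 higher and 23 lower (69 of 406, with 15.7% of all features at such a p). The same limit of the filter applies there. With the filter of 3 libraries 56 were higher and 30 lower (86 of 467, 18.4%, against 16.1% of all features tested). Of the 406, 19 (4.68%) were called, 12 of them holding sequences, against 2.01% of all features, and with the filter of 3 libraries 26 of 467 (5.57%) were, against 2.58% of all.

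Lists of miRNAs known for a source in blood were read at both lengths, as summed CPM, and their part in the results above was not tested. Fewer cells of a type and less RNA per cell cannot be told apart. Counts of sequences at an unadjusted p under 0.05 stand against 12.4% of all sequences tested and 10.2% of the short ones. Of the 5 miRNAs on the red blood cell list, 4 were matched (miR-451a, miR-16-5p, miR-144-3p and miR-92a-3p) and miR-486a-5p was not in the miRNA table. Their short sequences summed to 861, 1039, 1859 and 610.1 CPM in CTRL libraries 1, 2, 3 and 5, and to 308, 321, 439 and 802 CPM in MSUS libraries 6, 7, 8 and 10, and miR-144-3p held most of these counts. MSUS library 10 lay above CTRL library 5. Of the 12 short sequences tested, 0 were higher and 2 lower (median log2 fold change −0.13). At 20 to 24 nt the list summed to 6490.2, 6624, 9341 and 7049 CPM in CTRL and 3573, 3636, 3218 and 5705 CPM in MSUS. Every MSUS library lay below every CTRL library, and of 21 tested 0 were higher and 6 lower.

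The let-7 family, 7 miRNAs found in many tissues, had short sums of 169.8, 126, 237 and 173 CPM in CTRL and 94.4, 129, 87.9 and 113 CPM in MSUS. MSUS library 7 reached the CTRL range, and of 12 tested 0 were higher and 5 lower (median −0.56). At 20 to 24 nt the sums were 3417, 4494, 6630.0 and 6181 CPM in CTRL and 2965, 3571, 2388 and 3513 CPM in MSUS, which overlapped through CTRL library 1, and of 30 tested 0 were higher and 7 lower. Of the 3 liver miRNAs listed, miR-122-5p was not in the miRNA table and 2 were matched (miR-192-5p and miR-194-5p), with short sums of 10.3, 4.61, 8.72 and 7.15 CPM in CTRL and 2.27, 4.40, 2.51 and 4.60 CPM in MSUS. All CTRL libraries were above all MSUS libraries, by a narrow margin, and the 1 short sequence tested was lower. At 20 to 24 nt they summed to 1738, 1058, 1617 and 1444 CPM in CTRL and 609.9, 1029, 562 and 971 CPM in MSUS. Of the 129755 counts behind these sums, 129408 were of miR-192-5p, so the sums are nearly those of 1 miRNA. Again all CTRL libraries lay above all MSUS libraries, and of 9 tested 0 were higher and 7 lower.

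Of the 5 platelet and leukocyte miRNAs listed, miR-150-5p was not in the miRNA table and 4 were matched, with short sums of 17.6, 19.1, 23.9 and 18.8 CPM in CTRL and 9.32, 17.9, 10.9 and 12.2 CPM in MSUS. The groups overlapped through MSUS library 7, miR-223-3p was the most abundant and miR-142a-3p was at 0, and of 2 tested 1 was lower. At 20 to 24 nt they summed to 1194, 785, 857 and 649.5 CPM in CTRL and 390.2, 1093, 688 and 789.9 CPM in MSUS, with the groups overlapping, and of 12 tested 0 were higher and 0 lower. miR-146a-5p had 89383 of these 93274 counts.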

How the data were processed

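The authors prepared serum small RNA libraries, trimmed the reads (cutadapt 1.14 per the labels' processing notes) and collapsed them, and the deposited values are raw counts per unique sequence. The lowest row total was 8, so rarer sequences were not analysed here. The members and lists were chosen with earlier results of these data known. Testing was limited to sequences that exceeded 20 counts in 4 libraries or more and used edgeR 4.0.16 (quasi-likelihood test, TMM over all lengths, Benjamini-Hochberg over all tested); SE was derived from the F statistic. DESeq2 1.42.0 was an alternative. For single values per library, exact permutation tests (two-sided) ran over 70 assignments or 256 sign flips. Both kinds of test were checked on simulated data, but no outcome is given here and no result rests on it. No pair of libraries agreed within sampling noise (smallest chi-square per degree of freedom 101). Named sequences were the 10 most abundant, the first of each length, the 5 smallest p, the first within the 5 longer sequences holding most short counts, the 3 most abundant held by none, and the first in each of the 5 leading miRNAs. Distance of CTRL library 5 to group means was taken on log2 scaled CPM with 0.1 added.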

Additional observations from a re-analysis of the deposited data

Results flagged for a closer look

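In 3 of 98 groups of 4 libraries examined, 1 library lay far from the other 3; chance flags about 1 in 20 groups. The share of short counts held in longer sequences at neither end was 1.22% in MSUS library 8, against 1.07% in each other MSUS library. The 19 nt sequence of miR-10a-5p was at 105 CPM in CTRL library 2 and at 148 to 157 CPM in the other CTRL libraries. The red blood cell miRNAs at 20 to 24 nt summed to 5705 CPM in MSUS library 10 and to 3218 to 3636 CPM in the other MSUS libraries.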

How the results depend on the processing

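No paired analysis was possible because the compared serum groups share no replicate number. No short sequence was called by edgeR's quasi-likelihood test, 6 were by its exact test and 6 by DESeq2, and 0 to 36 when each library was left out in turn, 36 without CTRL library 5 (50 there with a filter of 3 libraries, chosen after seeing the data). Grouped by holding sequence where there was one, the count was 0 to 19 with each library left out, 19 without CTRL library 5 (26 with that filter). The cause was not tested. The difference in the share of short counts was −0.517 percentage points, −0.775 to −0.36 with 1 library left out (−0.775 without CTRL library 2), and −0.0738 as a share of 15 to 24 nt counts (p = 0.943, exact permutation test). It passed the threshold in none of 13 alternatives, and with CTRL library 5 as the only control the permutations cannot reach it.

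MSUS minus CTRL changed sign as follows. The 15 nt share was 0.0027 percentage points, −0.0427 to 0.0548 with 1 library left out, −0.00084 over sequences past the count filter and −0.153 with CTRL library 5 as the only control, a setting chosen after seeing the data. With that control the share opened by G was −6.95, that opened by T 3.64, the T content 0.905, the share held at the 5′ end −1.47 and at neither end −0.143 percentage points. With each sequence counted once, the share opened by A was −0.309 and C content 0.448. The held share was 4.33 with holding sequences of more counts, −3.45 with those of 20 to 24 nt, and −2.78 to −1.77 with 1 library left out. The share held at the 5′ end was −2.87 to 1.59, and the log2 ratio to holding sequences −0.15 to 0.0239, with 1 library left out; that ratio was −0.409 with all holding sequences of 20 nt or more. The share held in sequences of 25 nt or more, at 15 to 19 nt minus 20 to 24 nt, was −6.11 points by counts and 19.7 with each sequence counted once.

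Log2 fold changes changed sign for ACCACGTTCCCGTGG (−0.0667 by library totals, −0.52 with CTRL library 5 alone, −0.17 to 0.31 with 1 library left out) and, with CTRL library 5 alone, for TCCACCACGTTCCCGTGG (0.11), TACAGTATAGATGATGTAC (0.0428) and GCATTGGTGGTTCAGTGG (0.10; −0.27 to 0.10 with 1 left out). For GCATTTGTGGTTCAGTGG the values were 0.0027 by DESeq2 and by its size factors in edgeR, 0.026 with TMM over short sequences, 0.0049 without CTRL library 5, and −0.22 to 0.22 with 1 left out. For TACCCTGTAGAACCGAATT they were 0.0042, 0.0042, 0.0587 and 0.13 (CTRL library 5 alone), and −0.30 to 0.16. With 1 left out TACCCTGTAGATCCGAATT was −0.23 to 0.31 and ATACGACTCTTAGCGG −0.21 to 0.40.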
